A study of Homo sapiens with 6 samples.

Results

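Ribosomal proteins are the structural proteins that fold onto ribosomal RNA to make the small (40S) and large (60S) subunits of the cytosolic ribosome, the machine that translates mRNA. Their genes are among the most strongly expressed of a growing cell, and because nearly every one of these proteins is present once per ribosome (the stalk proteins excepted), the cell makes them in coordinated amounts. Most of their mRNAs begin with a 5′ terminal oligopyrimidine (TOP) tract, a C followed by a run of C and T in the gene, through which their translation is tied to growth signalling by mTOR.

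The genes described here were all rows of the expression table whose symbol is that of a cytosolic ribosomal protein, taken by the form of the symbol (RPL or RPS with a number) together with RPLP0, RPLP1, RPLP2, RPSA and FAU. The rule itself used no measured value, but the members were chosen with earlier results of these data known. The members were 83 of the 17039 genes in the table, with 33 proteins of the 40S and 50 of the 60S subunit. Among them, 5 are diverged copies of another member (RPL22L1, RPL26L1, RPL39L, RPL7L1 and RPS27L), and the other 78 are called core members below. The members RPL3L, RPL10L, RPS4Y1 and RPS4Y2 were not analysed here.

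The study compared a pair of cell lines, 231-BR and MDA-MB-231, by sequencing of poly(A) RNA in 3 libraries per line. MDA-MB-231 is an established human line of triple-negative breast cancer, and 231-BR is a variant of it selected for spread to the brain. The medium of 231-BR cells held 200 μg/mL G418, an aminoglycoside that acts on the eukaryotic ribosome, whereas that of MDA-MB-231 cells held none, so that the line and the culture with G418 cannot be told apart. Each line is 1 cell population, and the sources do not say whether its 3 replicates were separate cultures, so that the p-values measure only the spread between these libraries, which may be technical.

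Expression was given as FPKM, a level scaled to the length of the transcript and to the mapped fragments of the library. Read counts were not used here and the depth is unknown. The summed FPKM of a library was 465020 to 472007 in 231-BR and 486937 to 496420 in MDA-MB-231 cells. Vimentin, at 2553 ± 14.8 and 2306 ± 28.7 FPKM (SD, n = 3), CD44, AXL and EGFR markers of a mesenchymal breast cancer line, were expressed in both lines, but SPARC, another such marker, was close to absent at 0.18 and 0.673 FPKM. The means of ESR1, PGR and CDH1 were below 1 FPKM in both lines, while ERBB2 was at 9.88 and 4.95 FPKM and EPCAM at 8.70 and 5.06 FPKM. Of 8 markers of fibroblasts, immune cells and brain cells, the sum was 80.9 to 84.6 FPKM in 231-BR and 62.1 to 64.8 FPKM in MDA-MB-231 cells, nearly all of it from CD68. The others, among them the defining markers PTPRC, CD3E, GFAP and LUM, were at or below 0.25 FPKM on average, and 1 to 6 of the 8 were at 0 in a library. The part of CD68 in the results below was not tested.

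The start of the gene is shown first for members with large changes, because most, though not all, mRNAs of ribosomal proteins begin with a TOP tract. The windows come from the RefSeq promoter table for GRCh38.p14, on the strand of the gene and from 5′ to 3′, with 10 bases before the annotated start and 20 bases from the start on. Capitals mark a run that opens with C, holds at least 4 more C or T, and begins within 5 bases of the annotated start. The first 6 windows are of the members with the 3 largest decreases of each subunit in 231-BR cells, and the other 5 are of members with large increases.
RPLP2, chr11:809957-809986, plus strand: tcggcgccttCCTTTTCCTCCCTgtcgcca
RPL36, chr19:5690285-5690314, plus strand: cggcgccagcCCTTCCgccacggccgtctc
RPS21, chr20:62387093-62387122, plus strand: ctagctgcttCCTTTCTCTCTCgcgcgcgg
RPS14, chr5:150449720-150449749, minus strand: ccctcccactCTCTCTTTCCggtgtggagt
RPS15, chr19:1438386-1438415, plus strand: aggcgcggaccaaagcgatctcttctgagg
RPL26L1, chr5:172958719-172958748, plus strand: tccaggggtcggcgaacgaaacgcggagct
RPL36A, chrX:101391001-101391030, plus strand: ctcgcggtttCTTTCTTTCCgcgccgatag
RPS28, chr19:8321486-8321515, plus strand: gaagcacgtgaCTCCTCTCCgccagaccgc
RPS4X, chrX:72277229-72277258, minus strand: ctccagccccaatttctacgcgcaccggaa
RPL17, chr18:49492446-49492475, minus strand: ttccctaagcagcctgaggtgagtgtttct
RPS27L, chr15:63157458-63157487, minus strand: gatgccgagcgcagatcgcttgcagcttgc

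Of the 6 lower members 4 have a run at the annotated start itself, as RPL36A does among the higher ones, of 13 bases in RPLP2, 6 in RPL36, 12 in RPS21, and 10 in RPS14 and RPL36A. In RPS28 the run begins 1 base later. RPS15 and RPL26L1 among the lower and RPS4X, RPL17 and RPS27L among the higher members have none within 5 bases of the start. The window of RPS15 holds such a run further from the start, which is not marked. For RPL26L1 the first of its annotated starts is shown, and the other has none either. An annotated start can lie several bases from the start used in these cells, which were not mapped here.

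In 231-BR cells most ribosomal protein mRNAs were somewhat less abundant than in MDA-MB-231 cells. By limma on log2(FPKM + 0.1), with Benjamini-Hochberg adjustment over all 13465 genes tested, 56 of the 83 members (67.5%) fell and 18 (21.7%) rose at an adjusted p below 0.05, and 9 did not pass. All 83 members passed the filter on low values. The replicates were close and many genes passed this test, since 32.9% of all genes tested were called lower, 44.4% higher and 77.3% in either direction. The median log2 fold change of the members was -0.21, with quartiles of -0.41 and 0.01, whereas the median over all genes tested was 0.08. The changes were small: 1 member rose and 8 fell by more than 0.58 on the log2 scale (1.5-fold), for which the shares of all genes were 21.3% and 11.1%, and no member passed the study's criteria, here a log2 fold change over 1 with an adjusted p below 0.05 and a mean of at least 1 FPKM in both lines, which 4.68% of all genes passed as higher and 1.77% as lower.

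The split of the calls depended on the scaling. After quantile normalization, 26 members were called higher and 42 lower, so that 38.2% of the called members were higher against 24.3% as deposited. That normalization moved the median of all genes by -0.14, to -0.06, and the median of the members was then also -0.06, which leaves a difference of -0.0033 between them in place of -0.29. The 42 members called lower after it were all among the 56 above, and the 18 called higher were all among its 26. In bulk RNA, less RNA per cell and fewer cells of a type cannot be told apart.

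**Figure D1:**
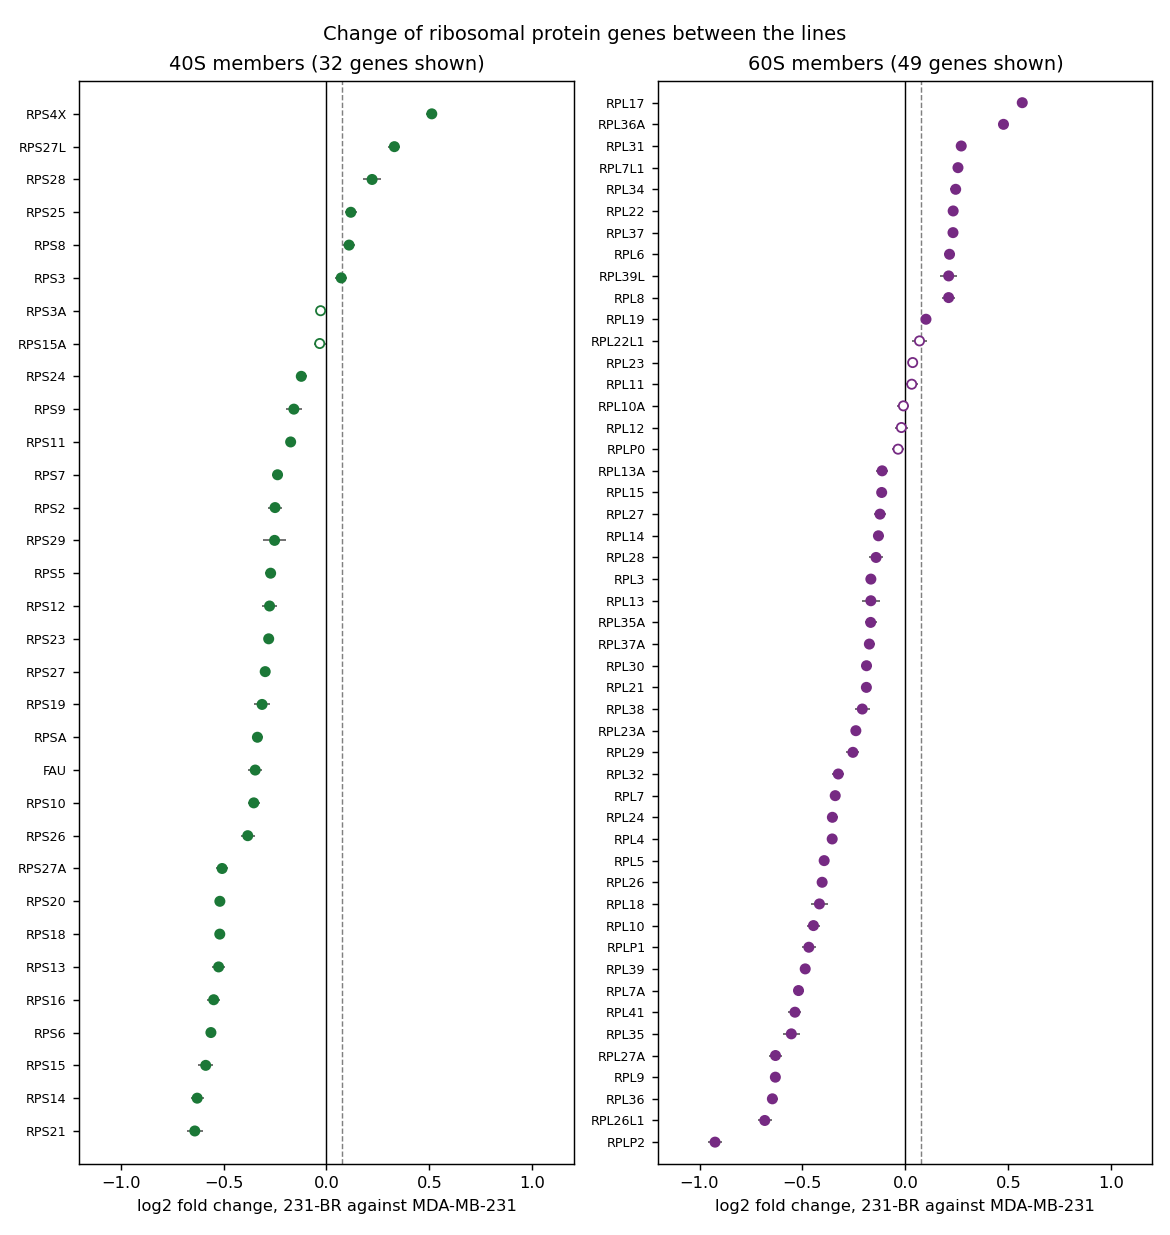
Log2 fold change of FPKM, 231-BR against MDA-MB-231, for 32 members of the 40S subunit (left) and 49 of the 60S subunit (right), with bars of 1 standard error from limma. Filled points passed an adjusted p below 0.05, open points did not, and the dashed line is the median of all genes tested, 0.08. Most points lie left of 0, from RPLP2 at -0.92, and RPL17 at 0.57 and RPS4X at 0.51 stand well to the right.

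Other genes of like level were also lower in the median. The lowest core member, RPL27A, had a mean of 135 FPKM over the libraries, and of the 468 other genes at or above that level, a comparison chosen after the data were seen, 274 (58.5%) were called lower and 146 (31.2%) higher, with a median log2 fold change of -0.16. The median of the members, -0.21, was nearer to this value than to the 0.08 of all genes tested. Neither gap was tested.

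The share of the members in the summed FPKM of a library was also lower in 231-BR cells. The 83 genes took 17.8%, 18.3% and 18.2% of the summed FPKM in 231-BR replicates 1, 2 and 3, and 19.4%, 19.8% and 19.9% in MDA-MB-231 replicates 1, 2 and 3. Every 231-BR library was below every MDA-MB-231 library. In FPKM the sums were 85072 ± 1830 and 97002 ± 2409 (SD, n = 3), a log2 ratio of -0.19. This ratio, unlike the share, includes the lower summed FPKM of the 231-BR libraries. Of the 100 genes with the highest FPKM in a library, 56 were members in each 231-BR library and 58 or 59 in the MDA-MB-231 libraries.

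**Figure D2:**
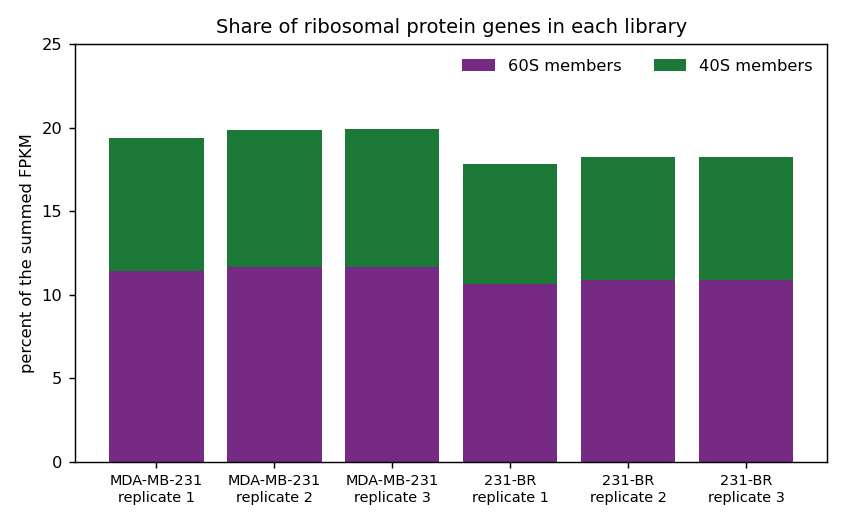
Share of the summed FPKM of each library taken by the 50 members of the 60S subunit (purple) and the 33 of the 40S subunit (green), as percent from 0, with 1 bar per library. The total bars stand at 17.8% to 18.3% in 231-BR and at 19.4% to 19.9% in MDA-MB-231 cells.

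In both subunits more members were called lower than higher as deposited. Of the 33 proteins of the 40S subunit, 24 fell, 6 rose and 3 did not pass, with a median log2 fold change of -0.28. Of the 50 of the 60S subunit, 32 fell, 12 rose and 6 did not pass, with a median of -0.17. Of all genes tested 32.9% were called lower and 44.4% higher, and of the 468 other genes of like level 58.5% and 31.2%. The split by subunit was not repeated after quantile normalization, under which the median of all members was -0.064. The sum of the 40S members was 34336 ± 711 FPKM in 231-BR and 40097 ± 1129 FPKM in MDA-MB-231 cells, and that of the 60S members was 50736 ± 1119 and 56905 ± 1280 FPKM (SD, n = 3). The ratio of the 40S to the 60S sum over the core members was 0.681, 0.679 and 0.679 in 231-BR and 0.703, 0.708 and 0.711 in MDA-MB-231 cells, with every 231-BR library below every MDA-MB-231 library.

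The order of the genes was largely kept. Over the 78 core members, the log2 levels of the lines had a Pearson correlation of 0.94 and a Spearman correlation of 0.90 across genes, which share libraries and sequence properties and are not independent replicates. The median core member was at 958 to 997 FPKM in the 231-BR libraries and at 1071 to 1112 FPKM in those of MDA-MB-231. RPS27, a zinc-binding protein of the 40S subunit and the most abundant member, was at 2603 ± 9.37 FPKM in 231-BR and 3200 ± 60.1 FPKM in MDA-MB-231 cells. RPS2, which lines the mRNA entry channel, was at 2583 ± 81.3 and 3072 ± 106 FPKM, and RPL35, which lies at the exit of the peptide tunnel, was at 2114 ± 114 and 3103 ± 121 FPKM. All of these were lower in 231-BR cells as deposited, whereas after quantile normalization RPS27 did not pass the test (-0.0076, adjusted p = 0.70 by limma) and RPS2 turned to 0.043 (adjusted p = 0.043). At the other end, RPL27A was at 106 ± 2.04 and 164 ± 6.01 FPKM. The ratio of the highest to the lowest core member was 24.3 to 25.1 in 231-BR libraries and 19.2 to 19.9 in MDA-MB-231 libraries.

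Among the proteins of the 60S subunit the largest decrease was in RPLP2, one of the acidic proteins of the stalk. The stalk recruits and activates the GTPases that drive elongation, and in it RPLP1 and RPLP2 dimers are anchored to the ribosome by RPLP0. RPLP2 was at 756, 783 and 787 FPKM in 231-BR replicates 1 to 3 and at 1399, 1507 and 1512 FPKM in those of MDA-MB-231. The groups were far apart, with a log2 fold change of -0.92 (SE 0.032, adjusted p = 3.4e-09 by limma). RPLP1 was at 1276, 1336 and 1300 FPKM against 1720, 1810 and 1888 FPKM, a log2 fold change of -0.47. RPLP0, by contrast, was at 2321, 2407 and 2345 FPKM against 2316, 2445 and 2491 FPKM. Its libraries overlapped and its log2 fold change of -0.04 did not pass the test (adjusted p = 0.30 by limma), with values of 0.032, 0.0032 and 0.013 after TPM scaling, scaling to the sum of all other genes and quantile normalization. The difference between these members was not tested.

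RPL36, a small protein of the 60S subunit, was at 639, 665 and 661 FPKM in 231-BR and at 999, 1023 and 1054 FPKM in MDA-MB-231 cells, a log2 fold change of -0.65 (SE 0.026, adjusted p = 9.4e-09 by limma). The paralog RPL26L1 fell by 0.68 on the log2 scale from a much lower level, as given with its parent gene below.

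RPL17 and RPL36A were among the 60S members with large increases. RPL17, which lies at the rim of the peptide exit tunnel, was at 1249, 1281 and 1285 FPKM in 231-BR and at 841, 859 and 874 FPKM in MDA-MB-231 cells, a log2 fold change of 0.57 (SE 0.023, adjusted p = 8.8e-09 by limma). RPL36A, a protein of the site through which the deacylated tRNA leaves, was at 974, 1008 and 995 FPKM against 717, 702 and 721 FPKM, a log2 fold change of 0.48. In both genes all 231-BR libraries were above all MDA-MB-231 libraries, and the calls stood in every setting tried.

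In the 40S subunit the largest decreases were in RPS21, RPS14 and RPS15. RPS21, a small protein needed for processing of the 18S rRNA precursor, was at 618, 671 and 646 FPKM in 231-BR and at 961, 1004 and 1050 FPKM in MDA-MB-231 cells, a log2 fold change of -0.64 (SE 0.037, adjusted p = 1.2e-07 by limma). RPS14, a protein of the platform whose gene lies in the region lost in the 5q- syndrome, was at 942, 985 and 969 FPKM against 1423, 1524 and 1531 FPKM, a log2 fold change of -0.63. RPS15, which takes part in export of the 40S precursor from the nucleus, was at 709, 768 and 745 FPKM against 1073, 1101 and 1163 FPKM, a log2 fold change of -0.59. The lines did not overlap in any of them.

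The largest increase of the 40S subunit was in RPS4X, the X-linked form of a 40S protein that has a counterpart on the Y chromosome. It was at 1696, 1714 and 1693 FPKM in 231-BR and at 1158, 1186 and 1237 FPKM in MDA-MB-231 cells, a log2 fold change of 0.51 (adjusted p = 4.9e-08 by limma). RPS28, a small protein near the mRNA exit, was at 1408, 1481 and 1527 FPKM against 1185, 1261 and 1344 FPKM, a log2 fold change of 0.22 (adjusted p = 0.0011 by limma) with a smaller gap between the lines. RPS27L, a diverged copy of RPS27, was at 39.4, 40.6 and 39.4 FPKM against 32.4, 31.2 and 31.3 FPKM, a log2 fold change of 0.33.

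**Figure D3:**
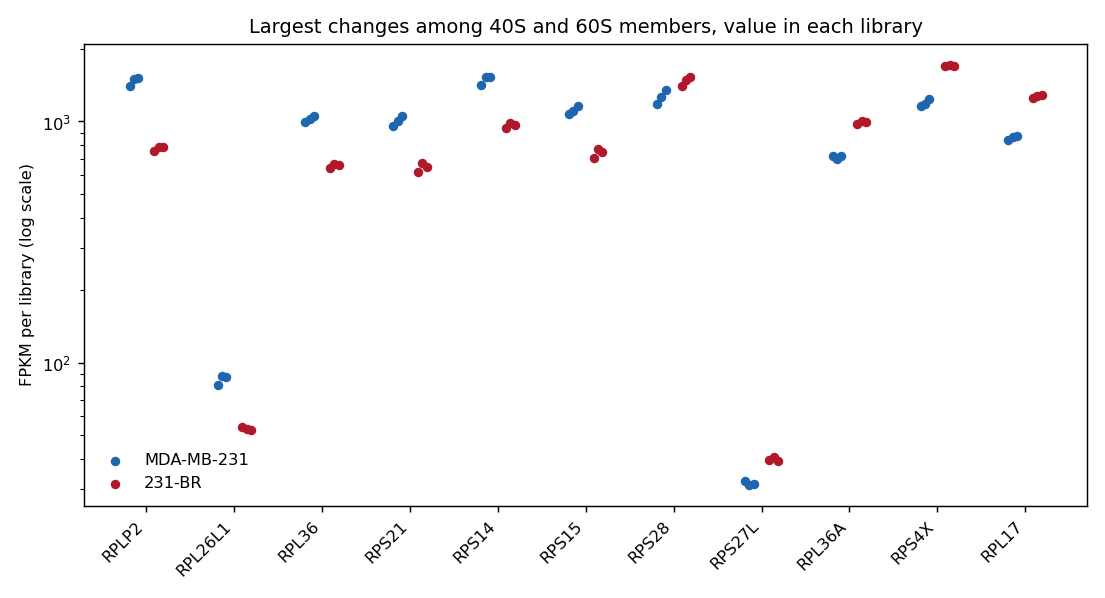
FPKM on a log scale in each of the 6 libraries for members among the 3 largest increases and 3 largest decreases of each subunit, with MDA-MB-231 in blue and 231-BR in red and 1 point per library. In the 6 genes on the left all red points lie below the blue ones, and in the 5 on the right above them, with RPLP2 (756 to 787 against 1399 to 1512 FPKM) and RPL17 (1249 to 1285 against 841 to 874 FPKM) at the ends.

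Some ribosomal proteins are made as fusions that are cut after translation, or have a known second role. RPS27A, a fusion of ubiquitin to a 40S protein, was at 605, 617 and 617 FPKM in 231-BR and at 832, 887 and 895 FPKM in MDA-MB-231 cells, a log2 fold change of -0.51. FAU, whose ubiquitin-like part is cut from the 40S protein eS30, was at 346, 346 and 360 FPKM against 422, 459 and 457 FPKM, a log2 fold change of -0.35. RPSA, a 40S protein also described as a laminin receptor, was at 1247, 1302 and 1255 FPKM against 1561, 1612 and 1628 FPKM, a log2 fold change of -0.34.

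The next members are named for their known roles, outside the rule for named genes. RPS6, the substrate of the S6 kinases, was at 733, 755 and 767 FPKM in 231-BR and at 1082, 1127 and 1117 FPKM in MDA-MB-231 cells, a log2 fold change of -0.56. RPL5 and RPL11 bind 5S rRNA together and can hold back MDM2, the ubiquitin ligase of p53. RPL5 was at 1016, 1024 and 1034 FPKM against 1343, 1362 and 1336 FPKM, a log2 fold change of -0.39, whereas RPL11 was at 1466, 1513 and 1537 FPKM against 1421, 1487 and 1514 FPKM, with overlapping libraries.

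RPL11 was one of the 9 members that did not pass, with a log2 fold change of 0.031 (adjusted p = 0.35 by limma). Among the others were RPLP0 at -0.036, RPS15A at -0.033, RPS3A at -0.029, RPL12 at -0.019, RPL10A at -0.0096, RPL23 at 0.035 and the paralog RPL22L1 at 0.069. Each of these signs turned under at least 1 scaling, and the direction of these members is not settled by the data. RPS3, the 40S protein with a role in DNA repair, was the call nearest to the threshold on the higher side, at 0.072, and turned to -0.011 with median-of-ratios scaling. Across the 83 members, 76 had no overlap between the libraries of the lines, and this was so for 78.4% of all genes tested.

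Paralogs can stand in for their parent protein in some ribosomes, and they were compared with the parent in the same library, which does not depend on the scaling factor of a library. RPL39L, expressed mainly in testis and in some cancers, amounted to 6.74%, 7.14% and 6.89% of RPL39 in 231-BR and to 4.15%, 4.42% and 4.24% in MDA-MB-231 cells, a difference of 0.70 in the log2 ratio. RPS27L amounted to 1.53% ± 0.0213 against 0.989% ± 0.0382 of RPS27 (SD, n = 3), a difference of 0.63. RPL7L1, which acts in the assembly of the 60S subunit, amounted to 18.3% ± 0.401 against 12.1% ± 0.124 of RPL7, a difference of 0.60. In these pairs the paralog had a log2 fold change above 0 (0.21, 0.33 and 0.26) while the parent fell as deposited (by 0.49, 0.30 and 0.34 on the log2 scale).

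The other pairs differed the opposite way. RPL26L1 was at 54.0, 53.1 and 52.7 FPKM in 231-BR and at 80.8, 88.3 and 87.7 FPKM in MDA-MB-231 cells, and it amounted to 2.63% ± 0.0869 against 3.19% ± 0.142 of RPL26, whose own log2 fold change was -0.40. RPL22L1 amounted to 8.36% ± 0.228 of RPL22 in 231-BR and 9.37% ± 0.258 in MDA-MB-231 cells, with RPL22 itself higher at 300 ± 4.80 against 255 ± 1.05 FPKM. RPL36AL, a copy of RPL36A on chromosome 14 whose symbol is outside the rule, amounted to 64.6% ± 0.310 against 68.0% ± 0.958 of RPL36A (SD, n = 3). All 6 ratios were without overlap between the lines, and each had an exact two-sided permutation p of 0.1, the smallest that 3 against 3 libraries allow, so that none can pass 0.05 in this design.

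**Figure D4:**
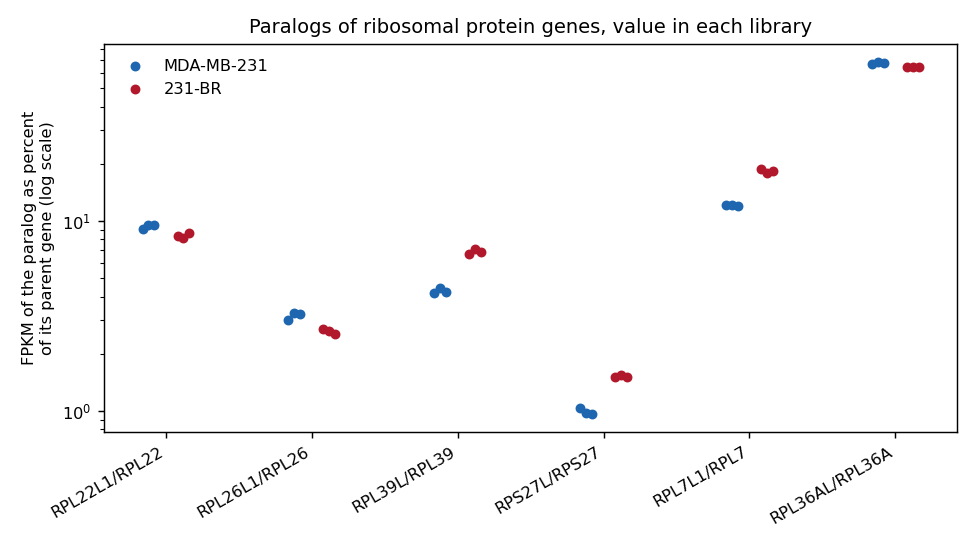
FPKM of each paralog as percent of the FPKM of its parent gene, on a log scale, with 1 point per library, MDA-MB-231 in blue and 231-BR in red. The red points lie above the blue ones for RPL39L, RPS27L and RPL7L1 and below them for RPL22L1, RPL26L1 and RPL36AL.

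The fold change of a member was also compared with that of the genes beside it on the chromosome, as the median over up to 40 neighbours, 20 on either side, with a mean of at least 1 FPKM and members left out. Across the 83 members, the fold change of the member and that of its neighbours had a Pearson correlation of 0.77 and a Spearman correlation of 0.70. Over 11007 other genes these were 0.35 and 0.51, and over the 468 other genes of like level 0.51 and 0.66. Over the 77 members whose neighbours had a median below 0.58 they were 0.65 and 0.64. These values are descriptions across genes, which share libraries and partly neighbours.

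There were 6 members whose neighbours had a median of at least 0.58, and all 6 were called higher. Among them were RPL36A and RPS4X on chromosome X, with neighbours at 1.19 and 1.09, RPS28 on chromosome 19 at 0.84, RPL17 on chromosome 18 at 0.77 and RPL8 on chromosome 8 at 0.68. Where the neighbours lay from 0.2 up to 0.58, 9 of 21 members rose and 6 fell, and where they lay from 0 up to 0.2, 1 of 15 rose and 13 fell. Where they lay below 0, 37 of 41 members fell and 2 rose. Over all genes tested, 44.4% were called higher and 32.9% lower, and other genes were not split by their neighbours here.

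As deposited, members were nevertheless lower than their surroundings. Of the 83, 76 (91.6%) were below the median of their neighbours, while 50.2% of the other genes and 75.4% of the 468 genes of like level were below theirs. The median difference from the neighbours was -0.29 on the log2 scale in the members, -0.20 in the genes of like level and -0.0019 in the other genes. RPLP2, for example, was at -0.92 with neighbours at -0.30. The 7 members above their neighbours were RPL3, RPS9, RPL12, RPL10A, RPL39L, RPL31 and RPS27L. Of these, RPL31, at 1050 ± 21.5 against 870 ± 10.5 FPKM (SD, n = 3) and 0.27 on the log2 scale, and RPS27L were the ones that rose among neighbours below 0. The part of gene copy number in these values was not tested. The comparison with neighbours used the values as deposited and was not repeated under the other scalings. After quantile normalization the median of the members differed from that of all genes tested by only -0.0033.

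**Figure D5:**
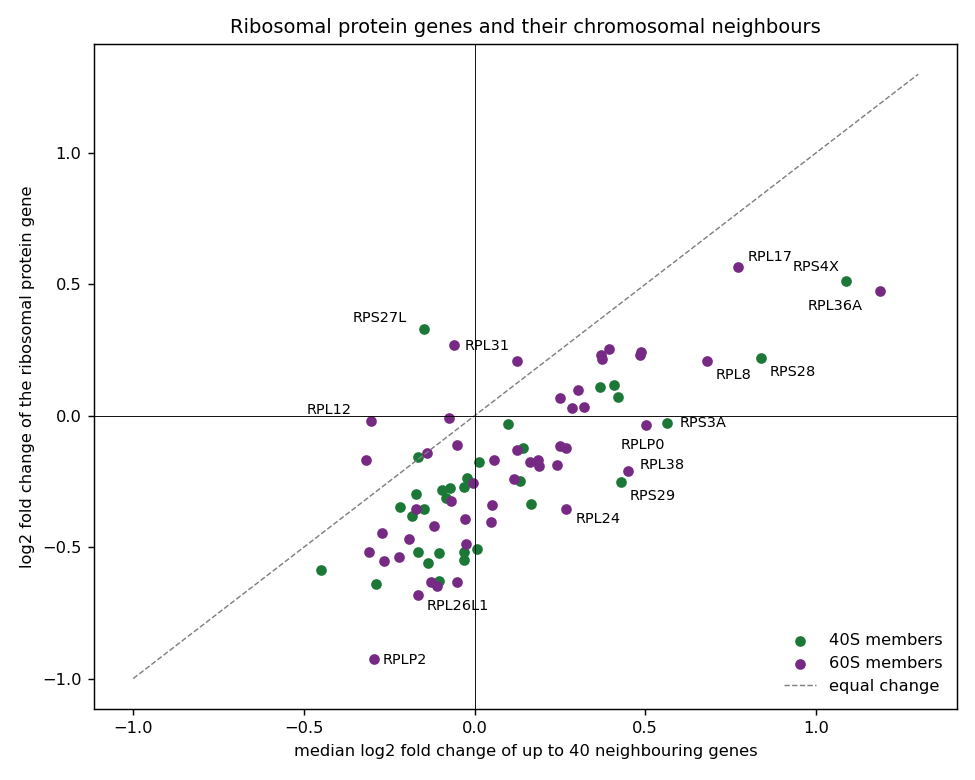
Log2 fold change of a member (vertical axis) against the median log2 fold change of up to 40 neighbouring genes (horizontal axis), with 40S members in green and 60S members in purple, and a dashed line at equal change. Of the 81 members plotted 74 lie below the line, and the 5 of them with neighbours at 0.58 or more are all above 0.

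The rule did not use the promoter, and 67 of the 83 members were found in the RefSeq table of windows from 250 bases before to 50 bases after the start. A C at the annotated start followed by at least 4 C or T was present in 48 of the 67 (71.6%), against 5.14% of all 27305 genes in the table and 7.05% of the 10853 other genes tested. With the run allowed to begin within 5 bases of the start, the share was 82.1% against 25.2% and 29.3%. CCGGAAG, the letters of an ETS-type motif, was found on either strand in 35.8% of the members, 12.2% of all genes and 21.8% of the other genes tested. CACGTG, the E-box bound by MYC, was found in 7.46%, 8.77% and 12.3%, and TATAAA between 40 and 20 bases before the start in 4.48%, 2.85% and 2.45%. By call, the strict start was found in 37 of 48 lower members, 6 of 13 higher members and 5 of 6 that did not pass, and the median log2 fold change was -0.29 with it and -0.12 without it. A match of letters is a description of these windows and not of binding.

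The same window is shown for the genes of paralog pairs not yet printed, where both genes of the pair are members with a window in the table. RPS27 has a run of 7 bases at its start where RPS27L, above, has none, and RPL26L1, also above, has none where RPL26 has a run of 12. RPL22 and RPL22L1 both have one.
RPS27, chr1:153990752-153990781, plus strand: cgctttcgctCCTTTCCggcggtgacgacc
RPL26, chr17:8383174-8383203, minus strand: gcgtgtagttCTCTTCCCTTTTgcggccat
RPL22, chr1:6199576-6199605, minus strand: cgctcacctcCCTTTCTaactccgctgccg
RPL22L1, chr3:170870176-170870205, minus strand: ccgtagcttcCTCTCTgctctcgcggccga

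Other genes of translation were compared from fixed lists, which were chosen with earlier results of these data known. The lists are to be read beside the 44.4% higher, 32.9% lower and median of 0.08 of all genes tested. Of 19 other genes with TOP mRNAs, 10 fell and 6 rose, with a median log2 fold change of -0.15. Among them, EEF2, the translocase of elongation, was at 278 ± 0.913 FPKM in 231-BR and 404 ± 10.6 FPKM in MDA-MB-231 cells, and RACK1, a scaffold protein of the 40S subunit outside the symbol rule, was at 1573 ± 31.4 against 2166 ± 69.7 FPKM. EIF3H, a subunit of the initiation factor eIF3, was higher at 374 ± 1.64 against 254 ± 4.31 FPKM (SD, n = 3).

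Of 53 factors of translation, mostly of initiation and elongation, 28 fell and 19 rose, with a median of -0.09. Some of these genes, EEF2 and EIF3H among them, are also in the list of TOP mRNAs above. The helicase EIF4A2 was at 449 to 453 against 258 to 275 FPKM over the libraries. GSPT2, one of the genes for the release factor eRF3, was listed at 0 in all 231-BR libraries and at 4.39 ± 0.540 FPKM in MDA-MB-231 cells.

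The 79 factors of ribosome assembly and RNA polymerase I were evenly split, with 31 higher, 32 lower and a median of -0.01. HEATR1, a factor of 18S rRNA processing, was at 20.5 ± 0.0924 against 11.1 ± 0.420 FPKM and TAF1A, a subunit of the polymerase I factor SL1, at 17.3 ± 0.531 against 10.7 ± 0.424 FPKM. The helicase DDX18 was at 36.2 ± 1.31 against 64.2 ± 1.10 FPKM, and TCOF1, which supports rDNA transcription, at 47.7 ± 0.604 against 74.2 ± 1.67 FPKM (SD, n = 3).

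The 78 proteins of the mitochondrial ribosome, which translates the mitochondrial genome, were close to all genes tested, with 38 higher (48.7%), 25 lower (32.1%) and a median log2 fold change of 0.07 beside 0.08. Their summed level was 3899 ± 54.7 FPKM in 231-BR and 3840 ± 69.9 FPKM in MDA-MB-231 cells. MRPL34 was at 70.3 ± 2.88 against 36.0 ± 1.69 FPKM, with neighbours on chromosome 19 at a median of 1.06, and MRPL42 had a log2 fold change of 0.81. MRPS33, at 13.5 ± 1.21 against 36.8 ± 0.463 FPKM (SD, n = 3), had the largest decrease at -1.44, and MRPL33 was at -0.83. Of the S6 kinase family, 9 of 10 genes were tested, with 4 higher and 3 lower. RPS6KA5 was at 4.87 ± 0.177 against 2.03 ± 0.0651 FPKM and RPS6KC1 at 6.81 ± 0.221 against 4.93 ± 0.165 FPKM, while RPS6KA3 was at 7.46 ± 0.153 against 10.4 ± 0.564 FPKM and RPS6KA4 at 27.1 ± 1.18 against 36.6 ± 1.67 FPKM (SD, n = 3).

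Ribosomal protein genes have many processed copies in the genome, and reads can be shared with them. In GENCODE release 29, 78 of the 83 members had at least 1 annotated pseudogene, with a median of 9 and up to 91 for RPL23A, and 1147 in all. How the authors' counting divided such reads is not given in the sources used here, so the absolute levels of these members are uncertain. In the table, the copy RPSAP58 was at 65.7 FPKM in 231-BR and 72.3 FPKM in MDA-MB-231 cells on average, and the readthrough genes that overlap members were lower than the members themselves, with RPL36A-HNRNPH2 at 44.1 and 27.5 FPKM and RPL17-C18orf32 at 1.87 and 1.37 FPKM.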

How the data were processed

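RNA from 3 libraries of 231-BR and 3 of MDA-MB-231 was analysed. The authors sequenced poly(A) RNA on a BGISEQ-500, filtered the reads and aligned them, with HISAT2 2.0.4, Bowtie2 2.2.5 and GRCh38.p12 named in the submitters' processing notes. They deposited FPKM with 2 decimals, and the program that computed it is not given in the sources used here. The study used a test on counts. Since the deposited unit was FPKM, that test was replaced by limma.

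Genes with a mean of 0.1 FPKM or more, 13465 in all, entered a linear model of log2(FPKM + 0.1) on the line in limma 3.58.1 (R 4.3.3), moderated by eBayes with a trend. The Benjamini-Hochberg adjustment ran over all of them. A fold change on this scale understates the change of low genes. Called genes had an adjusted p below 0.05. Descriptions and figures used pandas 2.3.3 and matplotlib 3.10.9 in Python 3.11.15. The fit was also run on simulated data with few changed genes and independent noise, which cannot show that the calls in these data are right.

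Libraries were grouped by the line in their titles. Named were the 3 highest members, the 3 largest increases and 3 largest decreases of each subunit, paralogs, stalk and fusion proteins, RPSA, members not called, and the 2 largest changes each way of the other lists. Members and lists were chosen with earlier results of these data known, and the genes of like level after their values were seen. Alternatives were other pseudocounts, filters, scalings, no trend, a replicate block and leaving out each library. Protein sequences were not used here. A few genes are left out of the text and figures.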

Additional observations from a re-analysis of the deposited data

How the results depend on the processing

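Depth is unknown, and the number of libraries limits the precision. The calls of 18 higher and 56 lower members were within 1.5 times under the pseudocounts, filters and scalings tried. Under the stricter rules 1 was higher and 8 lower (over 0.58) and 0 and 0 (over 1). The 9 members over 0.58 became 4 with TPM scaling and 18 with median-of-ratios scaling. The median of -0.21 became -0.14 with TPM scaling, -0.17 when scaled to the other genes, -0.29 with median-of-ratios scaling and -0.064 with quantile normalization, and the log2 ratio of sums of -0.19 became -0.27 with median-of-ratios scaling. These scalings shift all genes of a library, or, for quantile normalization, genes of like rank, and the cause beyond that was not tested. With TPM scaling the sign turned for RPLP0 (0.032), RPS15A (0.034), RPS3A (0.039), RPL12 (0.048) and RPL10A (0.058), and when scaled to the other genes for RPLP0 (0.0032), RPS15A (0.0058), RPS3A (0.010), RPL12 (0.019) and RPL10A (0.029). With median-of-ratios scaling it turned for RPL11 (-0.052), RPL23 (-0.048), RPL22L1 (-0.014) and RPS3 (-0.011). With quantile normalization it turned for RPS2 (0.043), RPL38 (0.017), RPL21 (0.034), RPL37A (0.0022), RPL14 (0.032), RPS24 (0.040), RPL15 (0.036), RPL13A (0.056), RPLP0 (0.013), RPS15A (0.16), RPS3A (0.15), RPL12 (0.078) and RPL10A (0.20). With 1 library left out, 17 to 18 members were higher and 56 to 57 lower, 9 to 10 were over 0.58, the median was -0.24 to -0.19 and the log2 ratio of sums -0.21 to -0.17. RPL12 ranged from -0.048 to 0.0086 and RPL10A from -0.039 to 0.0067. RPS3 lost its call with no filter, with no trend, and without 231-BR replicate 2 or 3 or MDA-MB-231 replicate 1 or 2, and RPLP0 gained one without MDA-MB-231 replicate 1 (-0.066). Libraries of the same replicate number did not deviate together, with correlations of 0.087, -0.040 and -0.11 over 11124 genes. Those of unlike numbers ranged from -0.15 to 0.18. No pairing by number was seen, but so few libraries cannot exclude one. A replicate block gave 18 higher and 56 lower members and a median of -0.21 and changed no call of a member. The counts of the other lists stayed within 1.5 times, and the 6 paralog ratios kept their direction with each library left out.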
